A study of Mus musculus with 23 samples.

Results

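The genes described here are 8 genes known to be induced by glucocorticoid hormone (Fkbp5, Sgk1, Tsc22d3, Zbtb16, Cdkn1a, Plin4, Mt1 and Mt2) and the receptor gene Nr3c1, 9 of the 22310 named genes in the deposited table. They were chosen by symbol, and all 9 were among the 16209 genes that passed the filter on low counts. The list was drawn up with the difference between PLX3397 and PLX5622 in these libraries in view, so that difference is given as a description, with no test. The data are RNA-seq of brain tissue from C57BL/6J mice with the amino acid change G793A in the receptor Csf1R (genotype Csf1R-G793A), which binds colony-stimulating factor 1, or of the wild type (WT). PLX3397 (pexidartinib) inhibits this receptor kinase and a few related kinases, and PLX5622 is a related inhibitor made to be more selective for it. There were 4 libraries from G793A mice on chow with PLX3397 at 290 mg/kg, 4 from G793A mice on PLX5622 at 1200 mg/kg, 4 from WT mice on PLX3397 at 290 mg/kg, 4 from WT mice on PLX5622 at 1200 mg/kg, 4 from G793A mice on control chow and 3 from WT mice on control chow. Every diet lasted 14 days. The labels give no age, sex, brain region or time of day of collection, and they leave unsaid whether libraries are separate mice. The p-values therefore cover only the variation among these samples.

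Glucocorticoid, chiefly corticosterone in mice, binds the receptor Nr3c1 in the cytoplasm, where the receptor sits in a complex with heat shock proteins. The bound receptor enters the nucleus and raises transcription of target genes, many of which serve feedback or stress adaptation. Corticosterone follows the time of day and stress, and in brain its targets respond in glia, endothelium and neurons. Several of the targets also answer to other signals: the metallothioneins Mt1 and Mt2 to zinc and other metals, Cdkn1a to p53, and Sgk1 to changes in cell volume.

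The smallest library held 26.3 M estimated counts and the largest 48.2 M (M, mega). All 7 neuronal, 9 astrocyte and 10 oligodendrocyte markers listed were expressed above the filter. The 10 microglial markers were lower in WT mice on either inhibitor than in WT controls (10 of 10 passed edgeR's test for each inhibitor), whereas none of the 10 passed in G793A mice against G793A controls. Siglech and P2ry12 had the smallest p-values of the list in WT mice on either inhibitor, at −2.54 and −2.59 on PLX3397 and −3.31 and −3.46 on PLX5622 on the log2 scale. A few libraries stand apart. The cerebellar granule cell gene Cbln3 stood at 221 CPM (counts per mega-count of the TMM-scaled library total) in G793A PLX5622 replicate 2 and at 30.8 CPM in WT PLX5622 replicate 1, and at no more than 1.73 CPM in any other library. WT PLX5622 replicate 1 also had 66.1 CPM of the pituitary gene Prl, and no other library had more than 6.56 CPM. The activity-induced gene Npas4 exceeded 100 CPM in G793A PLX3397 replicates 2 and 4, in G793A PLX5622 replicate 2 and in WT PLX3397 replicate 1. Results below are given with and without these libraries where that moves them.

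None of the 9 genes differed between groups beyond the threshold in any of the 11 comparisons tested. Over all genes, 0% to 1.95% passed in these comparisons, so few calls were to be had. The threshold was 0.05 for edgeR p-values adjusted by Benjamini-Hochberg across the whole table. The values that stand out are those of Sgk1 and Tsc22d3 in mice on PLX3397 and a set of individual libraries in which most of the induced genes were high together. Values are CPM per library in replicate order, and differences are log2 fold changes ± SE from edgeR. In bulk tissue, a change in RNA per cell and a change in the number of cells that hold the transcript cannot be told apart.

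**Figure D1:**
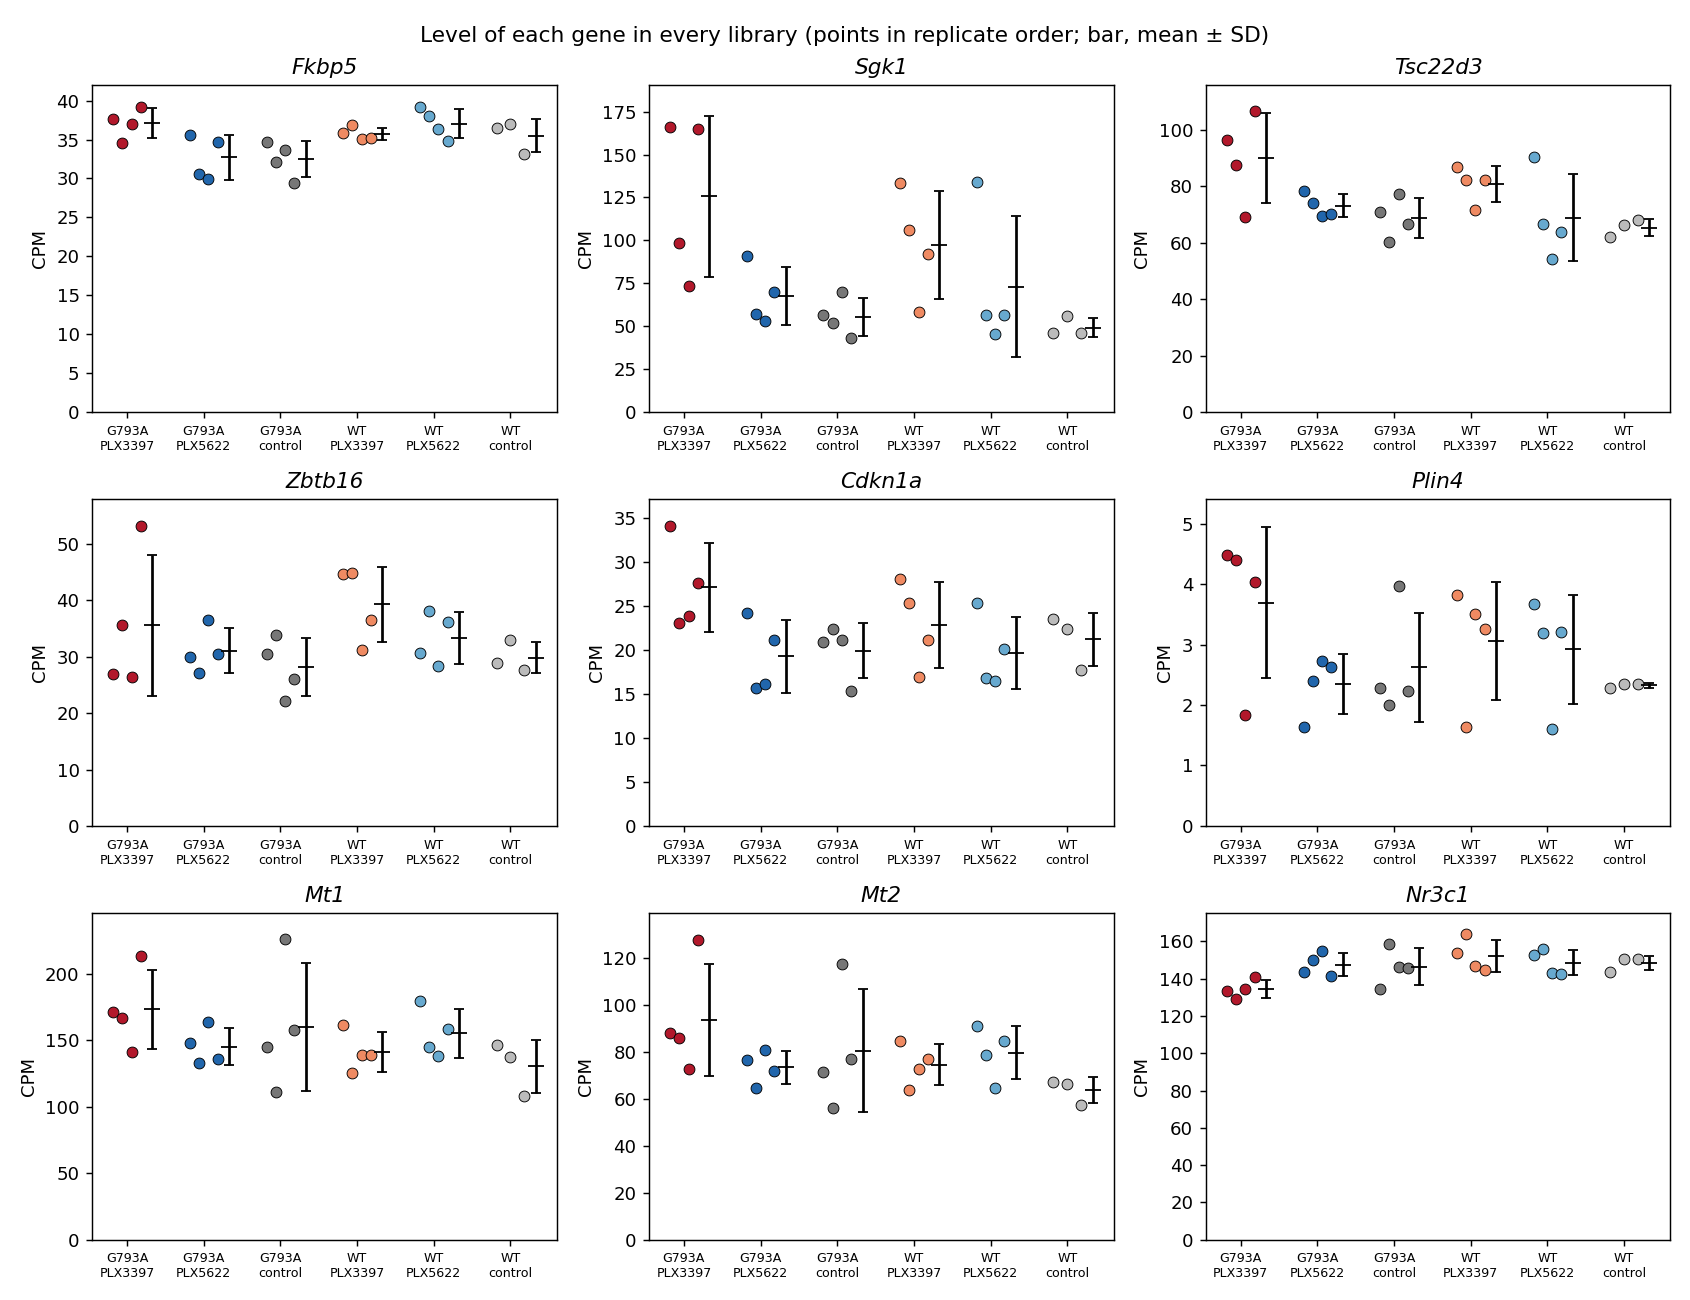
CPM of the 9 genes in every library, by group, with a bar for the mean ± SD. Sgk1 has the widest spread, with 4 libraries above 130 CPM in 3 different inhibitor groups, while Fkbp5 and Nr3c1 keep to a narrow range in all 6 groups.

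Nr3c1, the receptor itself, varied little. It stood at 134, 129, 135 and 141 CPM in G793A mice on PLX3397, against 144, 150, 155 and 141 CPM in G793A mice on PLX5622. The highest PLX3397 library (141.0 CPM) lay just under the lowest PLX5622 library (141.5 CPM), so these groups did not overlap. The difference was −0.13 ± 0.05, and it lies in the contrast that was in view when the genes were chosen. Among all genes tested, 4.14% had groups that did not overlap in this contrast, and 0.00617% passed the adjusted threshold. G793A controls had 135, 159, 146 and 146 CPM, and overlapped with both. In WT mice Nr3c1 averaged 152 ± 8.57 CPM on PLX3397 and 149 ± 6.74 CPM on PLX5622 (SD, n = 4 each), against 148 ± 3.82 CPM in WT controls (n = 3). The effect of PLX3397 on Nr3c1 differed by −0.16 ± 0.08 between G793A and WT mice (G793A minus WT), with an adjusted p of 1.00.

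Fkbp5 encodes a co-chaperone that lowers the receptor's affinity for hormone, and its induction is a widely used readout of receptor activity. In G793A mice it stood at 37.6, 34.5, 37.0 and 39.1 CPM on PLX3397, against 35.6, 30.6, 29.9 and 34.7 CPM on PLX5622. Control libraries of G793A mice had 34.7, 32.2, 33.7 and 29.4 CPM. The lowest PLX3397 library lay within both other ranges, and the difference from G793A controls was 0.19 ± 0.06 (adjusted p = 0.360). In WT mice Fkbp5 averaged 35.7 ± 0.784 CPM on PLX3397 and 37.0 ± 1.92 CPM on PLX5622 (SD, n = 4 each), against 35.5 ± 2.09 CPM in controls (n = 3). The 3 WT groups overlapped. The G793A controls were the lower of the control groups, by 0.13 ± 0.07 on the log2 scale (adjusted p = 0.492).

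Sgk1 encodes a serum- and glucocorticoid-regulated kinase that acts on ion channels and transporters, and it is a direct target of the receptor. Of the 9 genes it had the largest difference between either inhibitor and the controls of the same genotype. It stood at 166, 98.6, 73.4 and 165 CPM in G793A mice on PLX3397, against 90.7, 57.0, 52.8 and 69.8 CPM in G793A mice on PLX5622. G793A controls had 56.7, 51.9, 70.0 and 43.3 CPM. Every PLX3397 library of this genotype was above every control library, while a single PLX5622 library was. The difference between PLX3397 and control was 1.18 ± 0.34 (adjusted p = 0.333), and between PLX5622 and control 0.29 ± 0.34 (adjusted p = 0.724).

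WT mice had 133, 106, 58.1 and 92.1 CPM of Sgk1 on PLX3397, against 134, 56.3, 45.2 and 56.3 CPM on PLX5622. WT controls had 45.9, 55.7 and 46.1 CPM. All 4 PLX3397 libraries again lay above all controls, and the PLX5622 mean rested on replicate 1, one of the libraries with cerebellar transcripts. The difference from WT controls was 0.98 ± 0.38 on PLX3397 (adjusted p = 0.425) and 0.57 ± 0.37 on PLX5622 (adjusted p = 0.797). Without WT PLX5622 replicate 1 that PLX5622 difference was 0.10 ± 0.32. The description of PLX3397 minus PLX5622 for Sgk1 was 0.89 ± 0.34 in G793A mice and 0.41 ± 0.34 in WT mice. Leaving out WT PLX5622 replicate 1 gave a WT value of 0.89 ± 0.30. That value leaves out a high library on the PLX5622 side only. WT PLX3397 replicate 1, nearly as high at 133 CPM, was kept in it. The 2 inhibitors were given at different doses, so their values stand side by side and do not rank the compounds.

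The start region of Sgk1 is shown because Sgk1 stood furthest from controls and 1 of its 6 annotated start windows holds a full receptor site. Windows ran from 250 bases before to 50 bases after each RefSeq start, on build GRCm38.p6, and both strands were searched. The window lies at chr10:21993640-21993939 on the plus strand, and capitals mark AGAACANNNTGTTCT, the palindromic glucocorticoid response element, at positions −189 to −175 from the start site.
Sgk1: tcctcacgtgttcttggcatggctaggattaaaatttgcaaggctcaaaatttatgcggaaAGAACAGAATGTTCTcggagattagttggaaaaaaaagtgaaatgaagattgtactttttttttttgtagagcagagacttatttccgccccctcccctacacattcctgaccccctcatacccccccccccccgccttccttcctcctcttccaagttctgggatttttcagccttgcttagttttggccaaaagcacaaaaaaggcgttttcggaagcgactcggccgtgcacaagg
These letters occurred in 3 of 32851 mouse start windows (0.00913%). Of the 15 windows of the 7 genes that were searched, this was the only one that held them. Windows of Zbtb16 and Nr3c1 were not among those searched. The shorter arm AGAACA, which lies in both arms of the full site and occurred in 19% of all windows, was also found in 2 other Sgk1 windows and in 1 window of Tsc22d3. Such a match is a description of the sequence and not of binding.

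Tsc22d3 encodes the glucocorticoid-induced leucine zipper protein, which damps inflammatory signalling. G793A mice had 96.4, 87.6, 69.3 and 107 CPM on PLX3397, against 78.4, 74.1, 69.6 and 70.4 CPM on PLX5622. G793A controls had 70.9, 60.1, 77.2 and 66.6 CPM. Replicate 3 on PLX3397 was as low as the other groups and the remaining PLX3397 libraries were above all of them. The difference from G793A controls was 0.39 ± 0.13 on PLX3397 (adjusted p = 0.360) and 0.09 ± 0.13 on PLX5622 (adjusted p = 0.773).

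In WT mice Tsc22d3 stood at 86.8, 82.2, 71.7 and 82.2 CPM on PLX3397, against 90.5, 66.8, 54.1 and 63.9 CPM on PLX5622. WT controls had 62.0, 66.1 and 67.9 CPM. The PLX3397 libraries lay above all WT controls, and the PLX5622 libraries lay on both sides of them. The difference from controls was 0.30 ± 0.14 on PLX3397 (adjusted p = 0.557) and 0.08 ± 0.14 on PLX5622, where the value was −0.09 ± 0.12 without replicate 1. PLX3397 minus PLX5622 was 0.30 ± 0.13 in G793A mice and 0.23 ± 0.13 in WT mice.

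Zbtb16, a zinc finger transcription repressor that glucocorticoids induce, followed the same libraries only in part. G793A mice had 26.9, 35.7, 26.4 and 53.2 CPM on PLX3397, against 30.0, 27.1, 36.6 and 30.5 CPM on PLX5622. G793A controls had 30.5, 33.8, 22.1 and 26.1 CPM. Replicate 4 on PLX3397 was the highest of all 23 libraries. PLX3397 minus PLX5622 was 0.19 ± 0.19 in G793A mice, and it was −0.06 ± 0.15 without that library. WT mice had 44.7, 44.95, 31.2 and 36.5 CPM on PLX3397, against 30.8, 38.2, 28.3 and 36.2 CPM on PLX5622, with 28.9, 32.9 and 27.7 CPM in WT controls. The WT difference from controls was 0.40 ± 0.20 on PLX3397 (adjusted p = 0.650), and the groups overlapped.

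Cdkn1a encodes the cell cycle inhibitor p21, which p53 and glucocorticoids both induce. It stood at 34.1, 23.03, 23.8 and 27.6 CPM in G793A mice on PLX3397, against 24.3, 15.7, 16.1 and 21.1 CPM on PLX5622. G793A controls had 20.9, 22.4, 21.1 and 15.3 CPM, all below the PLX3397 libraries. The difference from controls was 0.44 ± 0.18 on PLX3397 (adjusted p = 0.391) and −0.04 ± 0.18 on PLX5622. WT groups overlapped, with means of 22.8 ± 4.87 CPM on PLX3397 and 19.7 ± 4.12 CPM on PLX5622 (SD, n = 4 each), against 21.2 ± 3.04 CPM in controls (n = 3). None of the 10 other p53 targets on the list passed in any comparison, where 0% to 1.95% of all genes passed. Their median difference from controls on PLX3397 was −0.04 in G793A mice and −0.03 in WT mice. In G793A mice the extremes, picked after the values were seen, were −0.29 ± 0.37 (Eda2r) and 0.56 ± 0.22 (Plk2). Their summed level averaged 615 ± 93.4 CPM on PLX3397 against 554 ± 8.29 CPM in G793A controls (SD). In WT mice it averaged 632 ± 83.8 CPM on PLX3397 against 557 ± 45.5 CPM in controls. The ranges overlapped in both genotypes. The part of p53 in the Cdkn1a values was not tested.

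Plin4, a coat protein of lipid droplets, was the scarcest transcript of the list, with 51 to 190 estimated counts per library. It stood at 4.48, 4.41, 1.84 and 4.04 CPM in G793A mice on PLX3397, against 1.64, 2.40, 2.72 and 2.64 CPM on PLX5622. Replicate 3 on PLX3397 was below 3 of the 4 PLX5622 libraries, and the other PLX3397 libraries were above all 4. G793A controls had 2.28, 2.00, 3.97 and 2.23 CPM. PLX3397 minus PLX5622 was 0.65 ± 0.29 in G793A mice and 0.06 ± 0.29 in WT mice, where Plin4 ran from 1.64 to 3.82 CPM on PLX3397 and from 1.61 to 3.66 CPM on PLX5622. No difference of Plin4 from controls passed the threshold.

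Mt1 and Mt2 encode metallothioneins, small cysteine-rich proteins that bind zinc and copper. In G793A mice Mt1 stood at 171, 167, 142 and 213 CPM on PLX3397, against 148, 133, 164 and 136 CPM on PLX5622. G793A controls spanned both, with 145, 111, 226 and 157 CPM. For Mt2 the values were 87.9, 85.7, 72.7 and 128 CPM on PLX3397, against 76.7, 64.5, 80.6 and 72.0 CPM on PLX5622 and 71.6, 56.0, 118 and 77.0 CPM in controls. A single control library, replicate 3, was the highest or second highest of all 23 for both genes. PLX3397 minus PLX5622 in G793A mice was 0.25 ± 0.17 for Mt1 and 0.35 ± 0.19 for Mt2. In WT mice it was −0.14 ± 0.17 for Mt1 and −0.10 ± 0.19 for Mt2, so the sign differed between genotypes, and both WT values were smaller than their SE. Both inhibitor groups of WT mice averaged above WT controls: Mt2 had 74.6 ± 8.77 CPM on PLX3397 and 79.7 ± 11.3 CPM on PLX5622 (SD, n = 4 each), against 63.6 ± 5.55 CPM in controls (n = 3).

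The start windows of the metallothionein genes are shown because these genes moved together more closely than any other pair on the list. Capitals mark TGCACNC or TGCGCNC, the core of the metal response element, read on either strand, and the windows lie at chr8:94178839-94179138 for Mt1 and chr8:94172368-94172667 for Mt2, both on the plus strand of GRCm38.p6.
Mt1: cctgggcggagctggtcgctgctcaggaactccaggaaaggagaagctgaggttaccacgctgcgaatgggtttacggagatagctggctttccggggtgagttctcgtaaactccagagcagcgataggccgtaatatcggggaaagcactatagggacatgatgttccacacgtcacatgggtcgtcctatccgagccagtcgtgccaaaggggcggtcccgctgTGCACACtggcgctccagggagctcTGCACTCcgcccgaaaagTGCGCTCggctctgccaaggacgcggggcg
Mt2: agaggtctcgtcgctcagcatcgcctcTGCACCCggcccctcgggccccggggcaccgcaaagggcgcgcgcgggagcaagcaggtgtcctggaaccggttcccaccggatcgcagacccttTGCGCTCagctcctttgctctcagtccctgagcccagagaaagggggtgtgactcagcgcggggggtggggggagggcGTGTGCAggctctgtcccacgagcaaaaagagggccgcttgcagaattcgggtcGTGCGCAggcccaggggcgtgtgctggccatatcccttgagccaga
Mt1 held 3 such cores and Mt2 held 4, and 25.7% of all start windows held at least 1. No full glucocorticoid response element was found in either window, which says only that these letters are absent there. Of the 10 other genes on the metal and oxidative response list, none passed in any comparison, where 0% to 1.95% of all genes passed. The part of metals in these values was not tested.

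**Figure D2:**
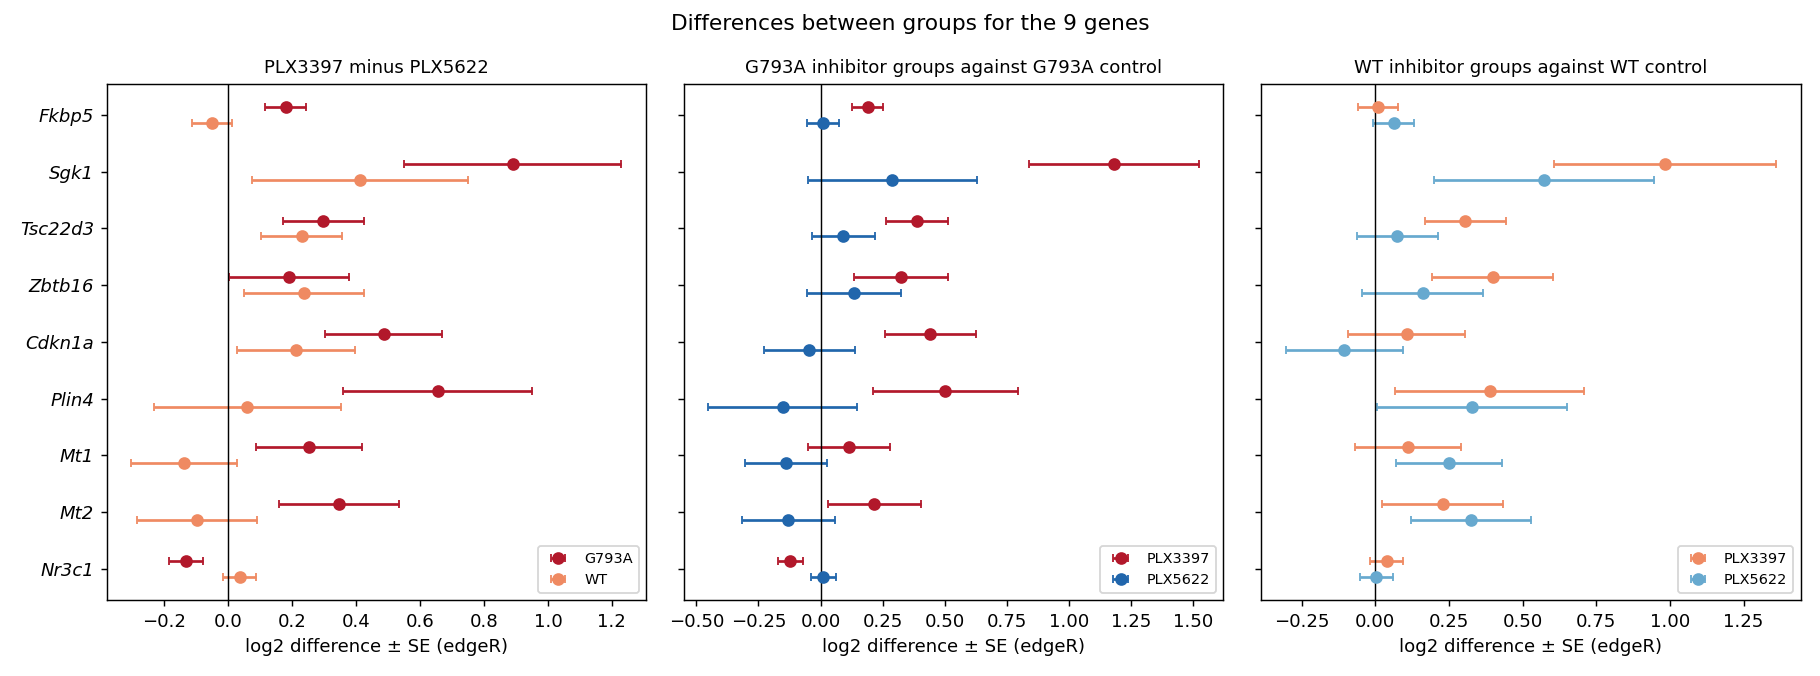
Log2 differences ± SE for the 9 genes: PLX3397 minus PLX5622 in each genotype (left), each inhibitor against control in G793A mice (middle) and in WT mice (right). In G793A mice the PLX3397 points of the 8 induced genes lie right of 0 and Nr3c1 lies left of it, and Sgk1 has both the largest values and the largest errors.

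As a list, the 8 induced genes all had positive differences for PLX3397 minus PLX5622 in G793A mice, with a median of 0.32, where 50.3% of all genes tested were positive and the median of all genes was 0.00. In WT mice 5 of 8 were positive, with a median of 0.14, where 50.4% of all genes were positive. The ranges of all 8 overlapped between the inhibitors in both genotypes, as did all but 4.14% of all genes in G793A mice and 3.35% in WT mice, and 0.00617% of all genes in G793A mice and 0% in WT mice passed the adjusted threshold in this contrast. The WT median was 0.02 without WT PLX3397 replicate 1 and 0.19 without WT PLX5622 replicate 1. The G793A median was 0.18, with 7 of 8 positive, without G793A PLX3397 replicate 4, and 0.17, again with 7 of 8, without the libraries with high Npas4. These counts describe the contrast that was in view when the genes were chosen.

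Against controls, PLX3397 gave positive differences for 8 of 8 induced genes in G793A mice (median 0.36, with 51% of all genes positive) and in WT mice (median 0.27, with 52.8% of all genes positive). These comparisons share the PLX3397 libraries with the contrast above and are not independent of it. Without the libraries with high Npas4, Zbtb16 and Mt2 turned negative in G793A mice. The smallest of the WT differences was 0.011. Of the 9 genes, 0 passed the adjusted threshold in either genotype with edgeR, DESeq2 or limma-voom, where edgeR called 0.00617% of all genes in G793A mice and 1.52% in WT mice. At an unadjusted p under 0.05, edgeR gave 5 of 9 genes in G793A mice (Sgk1, Fkbp5, Tsc22d3, Cdkn1a and Nr3c1), where 11.7% of all genes did so, and 2 of 9 in WT mice (Sgk1 and Tsc22d3), where 8.21% did. Groups did not overlap and were higher on PLX3397 for 2 of 8 induced genes in each genotype, Sgk1 and Cdkn1a in G793A mice and Sgk1 and Tsc22d3 in WT mice, against 1.92% and 4.94% of all genes. The 1 gene past the threshold in G793A mice on PLX3397 was Pdgfra, the receptor that marks oligodendrocyte precursors, named after its value was seen.

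PLX5622 gave 4 of 8 positive differences from controls in G793A mice (median −0.02, with 49.9% of all genes positive) and 7 of 8 in WT mice (median 0.21, with 52.8% of all genes positive). In both genotypes 0 of 9 genes passed with edgeR, DESeq2 or limma-voom, and 0 of 9 had an unadjusted p under 0.05 with edgeR, where 16.3% of all genes in G793A mice and 8.43% in WT mice had one. By the adjusted threshold 0% of all genes passed in G793A mice and 1.66% in WT mice. No induced gene had PLX5622 and control groups that failed to overlap, against 5.37% of all genes in G793A mice and 8.93% in WT mice. Without WT PLX5622 replicate 1, 6 of 8 were positive in WT mice, with a median of 0.13.

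The mean of both inhibitor groups against control does not use the difference between the inhibitors, although it rests on the same libraries. In WT mice 8 of 8 induced genes were positive (median 0.23, with 52.9% of all genes positive) and in G793A mice 7 of 8 (median 0.19, with 50.7% of all genes positive). Sgk1 differed by 0.78 ± 0.34 in WT mice (adjusted p = 0.482) and 0.73 ± 0.30 in G793A mice (adjusted p = 0.248), and neither passed. Of the 9 genes, 0 passed in either genotype with edgeR, DESeq2 or limma-voom, where edgeR called 1.95% of all genes in WT mice and 0% in G793A mice. An unadjusted p under 0.05 was found for 1 of 9 genes in WT mice (Sgk1) and 2 of 9 in G793A mice (Sgk1 and Tsc22d3), where 9.21% and 16.1% of all genes had one. Without the libraries with cerebellar transcripts, the WT value of Sgk1 was 0.54 ± 0.28.

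Genotype alone, G793A controls against WT controls, gave 5 of 8 positive differences with a median of 0.11, where 48.3% of all genes were positive. Of the 9 genes 0 passed or had an unadjusted p under 0.05 with edgeR, where 0% of all genes passed and 11.1% had such a p. The largest values were those of Mt2 (0.34 ± 0.20, adjusted p = 0.551) and Mt1 (0.29 ± 0.18, adjusted p = 0.556). Without G793A control replicate 3 they were 0.10 ± 0.17 for Mt2 and 0.08 ± 0.15 for Mt1. No difference between the genotypes in an inhibitor's effect passed the threshold for any of the 9 genes. For PLX3397 the G793A effect minus the WT effect ran from −0.07 to 0.33 over the induced genes, with adjusted p-values of 1.00, where 0.555% of all genes passed. For PLX5622 it ran from −0.48 to 0.06, with adjusted p-values of 0.707 and above, where 0.808% of all genes passed. DESeq2 and limma-voom also called 0 of 9 in these 3 comparisons, and edgeR gave an unadjusted p under 0.05 for Nr3c1 in the first of the inhibitor terms and for 0 of 9 genes in the other, where 4.12% of all genes had one for PLX3397 and 7.44% for PLX5622.

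Set against WT controls, G793A mice on PLX3397 had 8 of 8 induced genes positive (median 0.43, with 51.6% of all genes positive). Zbtb16 turned negative there without the libraries with high Npas4, and also when a single library was left out. Groups did not overlap for Sgk1 (1.35 ± 0.38, adjusted p = 0.438), Tsc22d3 (0.46 ± 0.14, adjusted p = 0.470) and Mt2 (0.55 ± 0.20, adjusted p = 0.547), all higher, where 3.51% of all genes were higher without overlap. Nr3c1 was lower without overlap (−0.14 ± 0.06, adjusted p = 0.567), as were 4.11% of all genes. G793A mice on PLX5622 had 6 of 8 positive (median 0.11, with 50.2% of all genes positive), and 1 gene, Tsc22d3, was higher without overlap (0.16 ± 0.14, adjusted p = 0.882), against 3.39% of all genes. In both comparisons 0 of 9 genes passed with edgeR, DESeq2 or limma-voom, where edgeR called 0.00617% of all genes on PLX3397 and 0% on PLX5622, and edgeR gave an unadjusted p under 0.05 for 5 of the 9 on PLX3397 and 0 of the 9 on PLX5622, where 7.24% and 6.76% of all genes had one.

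Ordered by mean level over the 6 groups, the ranges of each group and its neighbour overlapped in 45 of 45 neighbouring pairs over the 9 genes. The same share over all genes was not computed, so this count describes nothing particular to these genes. The order itself differed by gene. G793A mice on PLX3397 had the highest mean for 7 of the 8 induced genes, and WT mice on PLX3397 had it for Zbtb16. For Nr3c1 the highest mean was that of WT mice on PLX3397 and the lowest that of G793A mice on PLX3397.

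**Figure D3:**
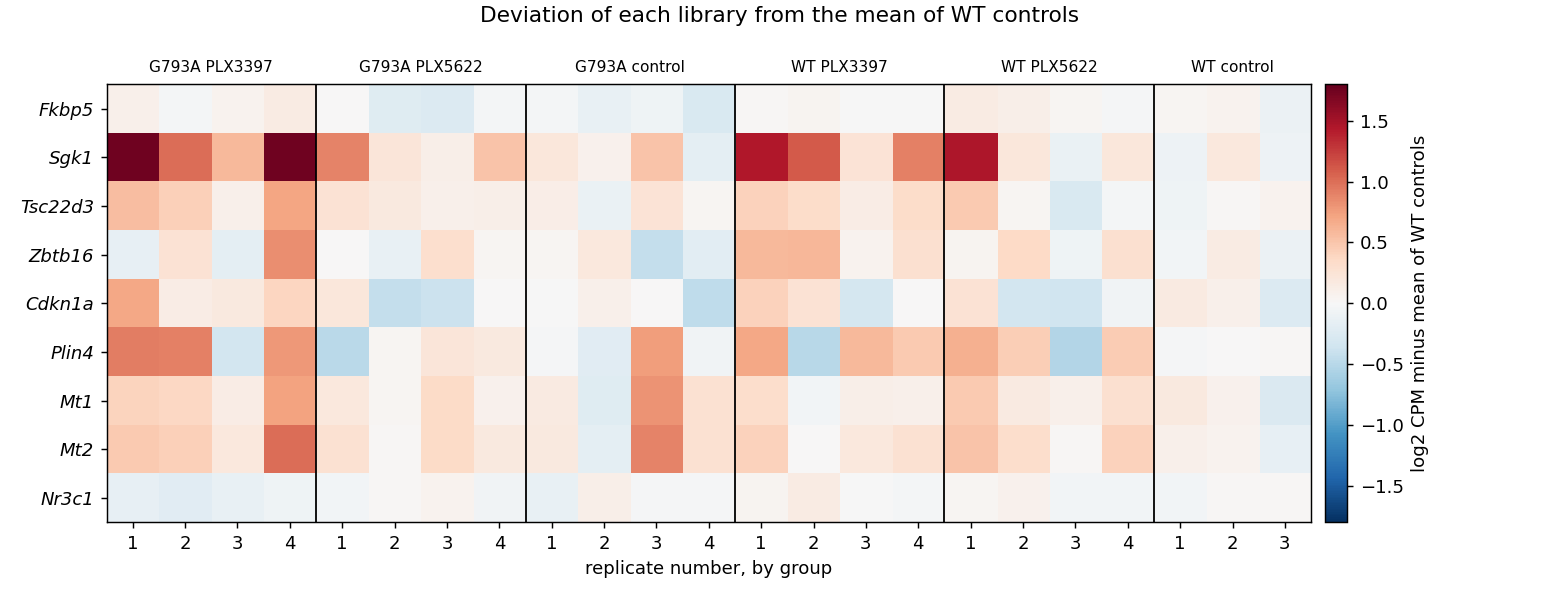
Deviation of log2 CPM in each library from the mean of WT controls, for the 9 genes (down) and 23 libraries (across, by group and replicate number). High values cross the group borders: G793A PLX3397 replicates 1 and 4, WT PLX3397 replicate 1 and WT PLX5622 replicate 1 are high for Sgk1, Tsc22d3 and the metallothioneins together.

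Some libraries were high for most of the induced genes together. The ranks given first are of levels over all libraries, so they include differences between groups. G793A PLX3397 replicate 4 was among the 5 highest of 23 libraries for 8 of 8 induced genes, G793A PLX3397 replicate 1 for 7, WT PLX5622 replicate 1 for 6 and WT PLX3397 replicate 1 for 5. No other library reached 5, and G793A PLX3397 replicate 3 was among the 5 highest for 1 of 8. The same ranks over all genes were not computed, so a trait of these genes and one of the libraries cannot be told apart. G793A PLX3397 replicate 4 was also the smallest library (26.3 M). After group means were removed, log2 CPM of Sgk1 correlated over the 23 libraries with Tsc22d3 (Pearson r = 0.888), Cdkn1a (0.831) and Fkbp5 (0.595), and less with Zbtb16 (0.245) and Nr3c1 (0.201). Mt1 and Mt2 formed a second pair (r = 0.957), with Plin4 nearest to Mt2 (0.674). Values of a pair come from the same library and share its depth and scaling, so these r values are descriptions.

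The genes outside the list whose deviations were most like those of Fkbp5, among 13953 genes at a mean of 1 CPM or more, were Mettl3 (r = 0.776), Dnajb5 (0.769), Sik1 (0.737), Fosl2 (0.726), Nr4a3 (0.718) and Ncbp1 (0.714). For Sgk1 the closest, looked up after its values were seen, were Nfkbia (0.962), Arl5b (0.905), Arrdc2 (0.901) and Ddit4 (0.897), and Tsc22d3 came next. Nfkbia encodes an inhibitor of NF-kappaB and Ddit4 an inhibitor of mTORC1, and both are known glucocorticoid targets. Nfkbia stood at 30.9, 25.9, 20.1 and 30.0 CPM in G793A mice on PLX3397, against 19.9, 15.1, 14.97 and 17.5 CPM on PLX5622. In WT mice it stood at 30.6, 24.9, 16.9 and 21.0 CPM on PLX3397, against 26.1, 16.6, 14.9 and 15.4 CPM on PLX5622. The same 4 libraries were highest as for Sgk1. Zbtb16 tracked another quantity, the summed level of the 16 clock genes tested (r = 0.828).

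**Figure D4:**
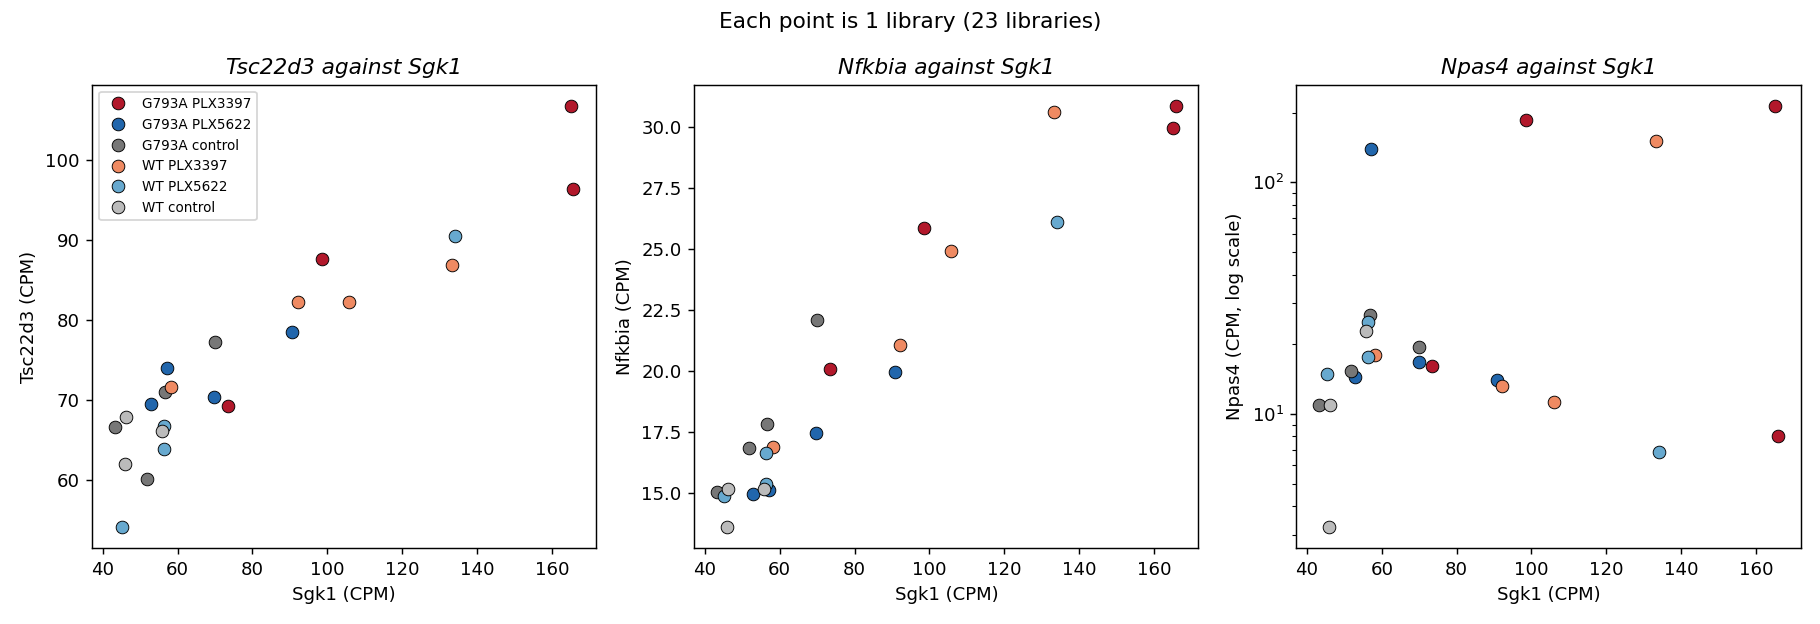
CPM of Tsc22d3 (left), Nfkbia (middle) and Npas4 (right, log scale) against Sgk1, 1 point per library, coloured by group. Tsc22d3 and Nfkbia climb with Sgk1 across all groups, whereas the 4 libraries with Npas4 above 100 CPM lie between 57.0 and 165 CPM of Sgk1 and 2 of the 4 libraries with Sgk1 above 130 CPM have Npas4 under 10 CPM.

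Other measures also varied between libraries, in part in the same ones. Npas4 stood at 8.04, 185, 16.2 and 214 CPM in G793A mice on PLX3397, against 14.0, 139, 14.4 and 16.7 CPM on PLX5622. In WT mice it stood at 152, 11.3, 17.997 and 13.2 CPM on PLX3397, against 6.83, 17.7, 14.9 and 25.0 CPM on PLX5622. Sgk1 was above 130 CPM in 2 libraries with high Npas4 and in 2 with Npas4 under 10 CPM, and the correlation of their deviations was 0.0353. That was the lowest r with Sgk1 among the 10 immediate early genes listed, and the highest was that of Fosb (0.647), both picked out after the values were seen. The summed level of the 10 genes had r = 0.464 with Sgk1, 0.512 with Tsc22d3 and 0.513 with Zbtb16. All 10 had positive PLX3397 differences from controls in both genotypes, where 51% of all genes in G793A mice and 52.8% in WT mice were positive. Of the 10, 0 passed in either genotype, where 0.00617% and 1.52% of all genes passed. Their summed level ran from 731 to 2376 CPM in G793A mice on PLX3397 and from 446 to 1047 CPM on PLX5622, and from 850 to 1931 CPM in WT mice on PLX3397 and from 327 to 774 CPM on PLX5622. Without the 4 libraries with high Npas4, the Sgk1 difference from controls on PLX3397 was 1.11 ± 0.41 in G793A mice and 0.80 ± 0.41 in WT mice.

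Red blood cell genes (5 of 5 tested, none at 0 throughout) summed to between 67.8 and 216 CPM in G793A mice on PLX3397 and between 113 and 244 CPM on PLX5622, and to between 37.2 and 100 CPM in WT mice on PLX3397 and between 98.8 and 298 CPM on PLX5622. In controls they summed to between 133 and 455.8 CPM in G793A mice and between 173 and 306 CPM in WT mice. In WT mice on PLX3397 Hba-a2, a haemoglobin chain gene, fell against controls (−2.18 ± 0.53, adjusted p = 0.0464), and the other 4 genes ran from −2.01 to −1.60 with adjusted p-values of 0.0914 to 0.102. Choroid plexus genes (8 of 8) summed to between 306 and 717 CPM in G793A mice on PLX3397 and between 250 and 434 CPM on PLX5622, and to between 374 and 610 CPM in WT mice on PLX3397 and between 380 and 1126 CPM on PLX5622. In controls the choroid plexus sum lay between 255 and 1180 CPM in G793A mice and between 443 and 758 CPM in WT mice. Mt1 and Mt2 ran against library size after group means were removed (r = −0.653 and −0.657 with log2 total counts), and their correlation with the summed oligodendrocyte markers was 0.602 and 0.651. With those markers r was 0.648 for Tsc22d3, 0.49 for Plin4 and 0.442 for Sgk1. The part of these measures in the results above was not tested.

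Of 21 other glucocorticoid-induced genes listed, all were tested and 0 passed in any comparison, where 0% to 1.95% of all genes passed. This list too was chosen with earlier results of these data known. It rests on the same libraries, so its counts are not independent of those above. On PLX3397 18 of 21 were positive against controls in both genotypes, with a median of 0.44 in G793A mice and 0.32 in WT mice, where 51% and 52.8% of all genes were positive and 0.00617% and 1.52% passed. PLX5622 gave 15 of 21 (median 0.14) in G793A mice and 17 of 21 (median 0.20) in WT mice, where 49.9% and 52.8% of all genes were positive. PLX3397 minus PLX5622 was positive for 18 of 21 in G793A mice (median 0.29) and 14 of 21 in WT mice (median 0.08), where 50.3% and 50.4% of all genes were positive. That contrast was in view when the 9 genes were chosen, so these counts are descriptions. Examples, picked after their values were seen, were on PLX3397 in G793A mice the clock gene Per1 (0.70 ± 0.20, adjusted p = 0.333), the transcription factor gene Klf15 (0.29 ± 0.09, adjusted p = 0.360) and Ddit4 (0.57 ± 0.19, adjusted p = 0.360). In WT mice Nfkbia had the smallest adjusted p on PLX3397 (0.67 ± 0.21, adjusted p = 0.179).

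Of 19 listed genes of the receptor's own pathway, 17 passed the filter on low counts (Hsd11b2 and Serpina6 did not). Of the 17, 0 passed the threshold in any comparison, where 0% to 1.95% of all genes passed. Values of 3 of them, picked for their roles, follow. The mineralocorticoid receptor gene Nr3c2, whose product also binds corticosterone, averaged 63.3 ± 5.62 CPM in G793A mice on PLX3397 and 62.9 ± 1.35 CPM on PLX5622, against 59.5 ± 6.54 CPM in G793A controls (SD, n = 4 each). Hsd11b1, which regenerates active hormone inside cells, had 14.7 ± 1.07 CPM on PLX3397 and 16.1 ± 3.61 CPM on PLX5622, against 17.7 ± 3.40 CPM in G793A controls. Fkbp4, the co-chaperone that opposes Fkbp5 at the receptor, had 122 ± 3.78 CPM on PLX3397 and 118 ± 6.72 CPM on PLX5622, against 122 ± 8.93 CPM in G793A controls. For each of these 3 genes the groups differed by less than the sum of their SDs.

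Among 16 clock genes 1 passed in WT mice on PLX3397, where 1.52% of all genes passed, and the same gene passed for both inhibitors combined, where 1.95% did. Dbp, a transcription factor that the clock drives directly, rose in WT mice on PLX3397 by 0.46 ± 0.10 (adjusted p = 0.0139). The adjusted p was 0.109 without WT control replicate 3 and 0.0526 without WT control replicate 2, so the call was lost without either of those controls. For both inhibitors combined in WT mice Dbp differed by 0.35 (adjusted p = 0.0456), and that call was lost with all libraries kept under RLE scaling (0.0503), limma-voom (0.0510), no low-count filter (0.0541), genes kept at 1 CPM or more on average (0.0655) and limma on the authors' log2 values (0.0827). Its adjusted p there ran up to 0.30 when single libraries were left out, without WT control replicate 3. In G793A mice on PLX3397 Dbp differed from controls by 0.14 ± 0.09 (adjusted p = 0.552). Dbp deviations ran against those of Sgk1 (r = −0.435 over 23 libraries).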

How the data were processed

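RNA-seq was made from 23 mouse brain samples in 6 groups, with groups taken from the titles. Per the labels' protocols, RNA was extracted with RNeasy kits, made into stranded mRNA libraries and sequenced on a NovaSeq. Per the submitters' processing notes, FastQC 0.11.9, kallisto 0.46.1, DESeq2 1.26.0 and build GRCm39 were used. The authors deposited estimated counts per gene, of which 45.3% were not whole, and variance-stabilised values on a log2 scale. Estimated counts were rounded here to whole numbers. An entry with no gene name, 0.00829% to 0.0151% of each library, was left out.

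Genes passed edgeR's filterByExpr (count 10, total 15), which left 16209 of 22310. A robust quasi-likelihood model (edgeR 4.0.16, R 4.3.3) with TMM scaling was fitted to all 6 groups together, and p-values were Benjamini-Hochberg adjusted over all genes tested with a threshold of 0.05. An SE is the log2 difference divided by the square root of F. Deviations in correlations used log2 CPM with a prior count of 2. Alternatives used DESeq2 1.42.0, limma 3.58.1 and other settings, and the test was tried on simulated data. Totals of 26.3 M to 48.2 M (mega-counts) put 51 or more estimated counts behind every value of the 9 genes. Sequences are from RefSeq tables of GRCm38.p6, which is not the authors' build.

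The 9 genes and the other gene lists were chosen with earlier results of these data known. The naming rule took all 9 genes, up to 4 genes past the threshold from each other list, and the 6 genes most like Fkbp5. Departing from it, some comparisons give part of the 9 genes by counts and ranges only, and microglial genes are named for the inhibitors in WT mice only. Most names outside this rule are marked as chosen after their values were seen or, in the receptor pathway, for their roles. Cbln3, Prl and Npas4 carry no such mark, and the cutoffs on Cbln3 and Npas4 were set after the data were seen.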

Additional observations from a re-analysis of the deposited data

Results flagged for a closer look

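Among 45 groups of 4 libraries checked over the 9 genes, 3 held a library far from its group, by Dixon's criterion on the gap to the nearest library over the group's range. Chance gives about 1 in 20 groups. Sgk1 stood at 134.1 CPM in WT PLX5622 replicate 1, and the nearest library of that group had 56.33 CPM (gap over range 0.875). Plin4 stood at 1.841 CPM in G793A PLX3397 replicate 3, and the nearest had 4.04 CPM (0.834). Plin4 stood at 3.973 CPM in G793A control replicate 3, and the nearest had 2.281 CPM (0.859). That control library also had the highest Mt1 level and the second highest Mt2 level of the 23.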

How the results depend on the processing

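In 2223 recomputed values of the 9 genes, 0 came past the threshold. The sign changed in 150, of which 7 had lain over 1 SE from 0 or moved by more than the replicate SD. The cause of the changes below was not tested. Leaving out single libraries gave Zbtb16 a range of −0.0054 to 0.36 in G793A PLX3397 against WT controls and of −0.062 to 0.31 in G793A PLX3397 minus PLX5622, and gave Sgk1 a range of −0.46 to 0.19 in the PLX5622 effect in G793A minus that in WT. Settings chosen after seeing the data turned other signs. Without the libraries with cerebellar transcripts that Sgk1 value was 0.27. Without the libraries with high Npas4, Zbtb16 on PLX3397 in G793A mice was −0.083 against G793A controls, −0.16 against WT controls and −0.28 against PLX5622, and Mt2 was −0.00082 against G793A controls. With limma on the authors' log2 values, Nr3c1 in WT mice on PLX3397 was −0.025 against controls and Fkbp5 was 0.013 against PLX5622. The median of the 8 induced genes for PLX3397 minus PLX5622 ran from 0.18 to 0.43 in G793A mice and from 0.02 to 0.19 in WT mice without single libraries.

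Counts over all genes moved more. DESeq2 called 28, 313, 26, 8 and 229 genes for G793A PLX3397 and PLX5622 against G793A controls, the same groups against WT controls, and both inhibitors in G793A mice, where edgeR called 1, 0, 1, 0 and 0. Without G793A control replicate 2 edgeR called 23 genes for G793A PLX3397 and 980 for PLX5622 against G793A controls, 375 for G793A against WT controls and 1053 for both inhibitors. The PLX3397 effect in G793A minus that in WT had 55 calls without high Npas4 and 58 with limma on the log2 values, against 90. The other counts marked as moved were themselves between 0 and 4 calls. Counts that changed by a smaller factor, among them those in WT mice, are not given here.

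Replicate numbers did not pair the samples: same-numbered pairs had a median r of 0.00553 over 55 pairs, against 0.0015 over 165 others, and 4 libraries matched their own number best. With the replicate block 0 of the 9 genes passed in each comparison, and G793A PLX3397 against WT controls had 0 calls over all genes, against 1.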
